A study of Homo sapiens with 12 samples.

Results

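The genes of the actin cytoskeleton and the serum response factor (SRF) pathway comprised 37 genes: SRF, its coactivators MKL1 and MKL2, and 34 genes for actins, actin cross-linkers, calponins and tropomyosins, non-muscle myosin, focal adhesion proteins, regulators of filament turnover, a tubulin and a pair of small GTPases. They were listed by symbol for their known roles, with earlier results of these data known, and each of the 37 was found as 1 of the 24331 features in the deposited expression table. Of these, 35 reached a mean of 1 FPKM (fragments scaled to transcript length and to mapped fragments) and were among the 11256 features tested, and ACTA2 and CNN1 stayed below that level. RNA-sequencing was done in MDA-MB-231 cells, a human triple-negative breast cancer line with mesenchymal features, as wild type (WT) and as ΔCRE cells, in which CRISPR/Cas9 removed the NFAT and NF-κB binding sites from the core-regulatory element of the ETS1 promoter. Both genotypes were measured before stimulation (0 h) and after 6 h and 24 h of PMA (a phorbol ester that activates protein kinase C) with Ionomycin (a calcium ionophore), with 2 libraries in each of the 6 groups and 12 libraries in total. The ΔCRE cells came from screened clones after transient transfection, and how many clones entered the libraries is not given in the sources used here, so the deletion and the clone cannot be told apart. No unstimulated cells kept for 6 h or 24 h are among the samples, so stimulation and time in culture cannot be told apart either.

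SRF is a transcription factor that binds the CArG box, a pair of C and a pair of G around a run of A and T, in the promoters of cytoskeletal and immediate early genes. Monomeric actin holds the coactivators MKL1 and MKL2 (also called MRTF-A and MRTF-B) out of the nucleus, and when actin polymerizes they join SRF at genes for actins, calponins, tropomyosins and focal adhesion proteins. The ternary complex factors (ELK1, ELK3 and ELK4) bind SRF at immediate early genes downstream of MAP kinases, a pathway that phorbol esters activate.

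The CArG box was looked for in the promoters of the members, 250 bases before to 50 bases after the start of the gene in RefSeq (GRCh38.p14). A single start per gene was used, so boxes at other transcript starts of the same gene were not looked for. A promoter was matched for 33 of the 37 members, all except ACTB, TAGLN, MYL9 and FSCN1. A CArG box (on either strand, since the pattern reads the same on both) stood in 8 of the 33, which is 24.2%, and in 351 of all 27305 RefSeq promoters of that length, which is 1.29%. The list was made to include SRF target genes, so a higher share than in all promoters could come from that choice alone. The 8 were SRF, ACTG1, CNN2, TPM4, MYLK, FLNA, FHL2 and RND3. The letters TGANTCA, bound by AP-1 factors, were in 2 of the 33 (6.06%) and in 7.76% of all promoters, and the ETS core CCGGAA, on either strand, was in 6 of the 33 (18.2%) and in 17.6% of all promoters. A match is a description of the letters, not of binding. SRF is shown because it carries a pair of boxes in its own promoter, starting 30 and 10 bases before the gene start, and FHL2 and RND3 because they carry a box (101 and 72 bases before the start) and were among the members whose level differed between ΔCRE and WT cells. Capitals mark the CArG boxes.
SRF (GRCh38.p14 chr6:43171019-43171318, plus strand): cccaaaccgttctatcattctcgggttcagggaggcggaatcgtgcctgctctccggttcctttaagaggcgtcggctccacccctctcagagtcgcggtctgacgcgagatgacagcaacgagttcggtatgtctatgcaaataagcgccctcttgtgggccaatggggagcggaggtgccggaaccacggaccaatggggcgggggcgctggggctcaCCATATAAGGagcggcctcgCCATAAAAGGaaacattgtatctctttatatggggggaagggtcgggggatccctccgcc
FHL2 (GRCh38.p14 chr2:105438464-105438763, minus strand): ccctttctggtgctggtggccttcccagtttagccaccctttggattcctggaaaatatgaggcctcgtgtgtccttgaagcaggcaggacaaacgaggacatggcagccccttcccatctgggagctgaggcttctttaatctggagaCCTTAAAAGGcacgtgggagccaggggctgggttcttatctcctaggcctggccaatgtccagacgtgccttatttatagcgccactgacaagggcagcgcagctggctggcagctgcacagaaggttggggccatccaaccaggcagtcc
RND3 (GRCh38.p14 chr2:150487646-150487945, minus strand): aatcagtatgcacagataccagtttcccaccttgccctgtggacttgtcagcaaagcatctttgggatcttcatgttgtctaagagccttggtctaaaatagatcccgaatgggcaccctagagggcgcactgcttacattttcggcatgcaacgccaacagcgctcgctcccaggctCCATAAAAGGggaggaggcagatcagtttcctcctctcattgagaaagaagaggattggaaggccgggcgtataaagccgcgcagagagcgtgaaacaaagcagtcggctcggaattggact

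The library labelled ΔCRE 0 h replicate 1 stood apart from the other 11. Its FPKM values summed to 1423335, against 566255 to 651080 in the others, its highest correlation with any other library was an r of 0.890, against 0.978 to 0.984 between replicates of the other groups (across genes, which are not independent replicates), and it held 1139 FPKM of EPCAM and 52.3 FPKM of CDH1, both epithelial genes. Summed over 5 markers of gut and other epithelium it reached 1406 FPKM, against 2.08 to 3.39 in the other libraries. In those 11 libraries VIM (1543 to 2539 FPKM) and CD44 (75.9 to 190.4) were high and ESR1, PGR and CDH1 were at most 0.032 FPKM summed, the profile of the labelled cell line, and of the 6 smooth muscle markers (25.3 to 72.4 FPKM summed, 40.2 in the library apart) MYH11, LMOD1, ACTG2 and SYNPO2 were each at most 0.27, DES at most 1.90 and SMTN between 24.7 and 71.8. The tests used the 11 libraries without it, the ΔCRE 0 h group was then 1 library whose spread was assumed to match that of the other groups, and its own values are given apart. P-values measure the spread between the libraries of a group, which may be less than that between independent cultures. In bulk RNA fewer cells of a kind and less RNA per cell cannot be told apart. ETS1, the gene whose promoter was edited, was at 139 and 145 FPKM in WT and 62.8 and 62.2 FPKM in ΔCRE libraries at 6 h.

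SRF itself rose late in both genotypes. SRF was at 16.1 and 14.9 FPKM in the WT libraries at 0 h, 14.3 and 13.6 at 6 h and 21.6 and 22.1 at 24 h. SRF in ΔCRE cells was at 15.8 FPKM in replicate 2 of 0 h, 14.3 and 13.9 at 6 h and 23.9 and 22.3 at 24 h. All 24 h libraries lay above all libraries of 0 h and 6 h. The log2 fold change, on the scale of log2(FPKM + 1), was 0.61 (SE 0.0619, adjusted p = 0.000131) from 6 h to 24 h in WT and 0.68 (SE 0.0619, adjusted p = 6.67e-05) in ΔCRE cells (limma, Benjamini-Hochberg adjustment, as in all tests here). Between genotypes SRF differed by at most 0.08 at any time point, with adjusted p-values of 0.899, 0.954 and 0.538 at 0, 6 and 24 h. Its coactivators moved in opposite directions at 6 h. MKL1 was at 5.84 and 6.07 FPKM in the WT libraries at 0 h, 8.26 and 7.55 at 6 h and 6.89 and 7.40 at 24 h. MKL1 in ΔCRE cells was at 6.66 FPKM in replicate 2 of 0 h, 8.09 and 7.93 at 6 h and 7.35 and 6.66 at 24 h. MKL2, the other coactivator, was lower in level per transcript length in each of the 11 libraries. MKL2 was at 2.98 and 3.50 FPKM in the WT libraries at 0 h, 1.96 and 1.89 at 6 h and 2.54 and 2.69 at 24 h. MKL2 in ΔCRE cells was at 3.53 FPKM in replicate 2 of 0 h, 2.33 and 2.197 at 6 h and 2.87 and 2.98 at 24 h. The WT libraries at 6 h were above those at 0 h for MKL1 and below them for MKL2, without overlap. From 0 h to 6 h in WT cells MKL1 changed by 0.36 (SE 0.0730, adjusted p = 0.00466) and MKL2 by -0.53 (SE 0.0840, adjusted p = 0.00122). MKL2 fell likewise in ΔCRE cells (-0.47, SE 0.103, adjusted p = 0.00934, with 1 library at 0 h), whereas the ΔCRE value of MKL1, 0.23, missed the threshold (adjusted p = 0.0819). Neither coactivator was called between genotypes at any time point. The MKL1 feature extends 39690 bases past the annotated gene, so reads from outside the gene could be counted in it. The smaller change of MKL2 at 24 h against 0 h in WT (-0.23) lost the call when any of 10 of the 11 libraries was left out.

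In WT cells the 35 tested genes changed in both directions. From 0 h to 6 h 12 rose and 7 fell, 54.3% of the members, against 44.4% of all tested features (23.3% higher and 21.1% lower). At 24 h against 0 h 12 rose and 12 fell, 68.6% against a background of 54.6% (26.5% higher and 28.2% lower), and from 6 h to 24 h 5 rose and 15 fell, 57.1% against 46.8% (20.5% higher and 26.3% lower). These comparisons share libraries. Fitted on the WT libraries of 0 h and 24 h alone, that of 24 h with 0 h had 5 higher and 11 lower. In that fit 48.7% of all features were called. In ΔCRE cells 8 rose and 10 fell from 0 h to 6 h, 51.4% against 29.8% (16.8% higher and 13% lower), and 6 rose and 17 fell from 6 h to 24 h, 65.7% against 49.6% (22.1% higher and 27.5% lower). With ΔCRE 0 h replicate 1 included, the 0 h to 6 h count in ΔCRE cells was 4, and without ΔCRE 6 h replicate 1 it was 10. With all 12 libraries 8.66% of all features were called at 6 h against 0 h in ΔCRE cells. The median log2 fold change of the 35 in WT was 0.10 at 6 h and -0.03 at 24 h against 0 h, with -0.0014 and -0.02 over all features.

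The balance of higher and lower calls depended on how libraries were scaled. Rescaling each library to the same FPKM total moved the median of all features by over 0.1, from -0.0014 to -0.12 at 6 h against 0 h in WT, from -0.04 to 0.08 at 24 h against 6 h in WT, and from 0.0022 to -0.13 at 6 h against 0 h in ΔCRE cells. The share of higher among all calls then went from 52.5% to 34.8%, from 43.7% to 65.4% and from 56.4% to 31.5%, in ΔCRE cells at 24 h against 6 h it went from 44.6% to 62.0%, and between genotypes at 24 h it went from 37.2% to 24.7%. For the members the counts became 10 higher and 15 lower at 6 h in WT (10 and 14 after quantile normalization), 11 and 14 at 24 h against 6 h in WT (10 and 12), 5 and 17 at 6 h in ΔCRE cells (4 and 13), and 11 and 13 at 24 h against 6 h in ΔCRE cells (12 and 11), and the members' median at 6 h in WT turned to -0.0087 (-0.06). The filter on low values was applied again after the rescaling to the same total. That fit tested 36 members and 11932 features, against 35 and 11256 in the main fit and after quantile normalization. No call of a member changed sign under either scaling. The rescaling ended the calls of TPM3, PFN1 and FHL2 at 6 h in WT, of MKL2 at 24 h against 0 h in WT, of FHL2 at 24 h against 6 h in WT, of TPM3, ACTN1 and WDR1 at 6 h in ΔCRE cells and of TPM1, TPM3, TAGLN2 and FSCN1 at 24 h against 6 h in ΔCRE cells. Quantile normalization ended those of TPM3 and PFN1 at 6 h in WT and of TAGLN2, MKL2, FHL2 and FLNA at 24 h against 6 h in WT. In ΔCRE cells it ended those of TPM3, ACTN1, MYH10, WDR1 and FLNA at 6 h and of TPM1, TPM3, TAGLN2, ACTN1, MKL2, ACTG1 and FSCN1 at 24 h against 6 h. Neither scaling ended a call between genotypes.

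**Figure D1:**
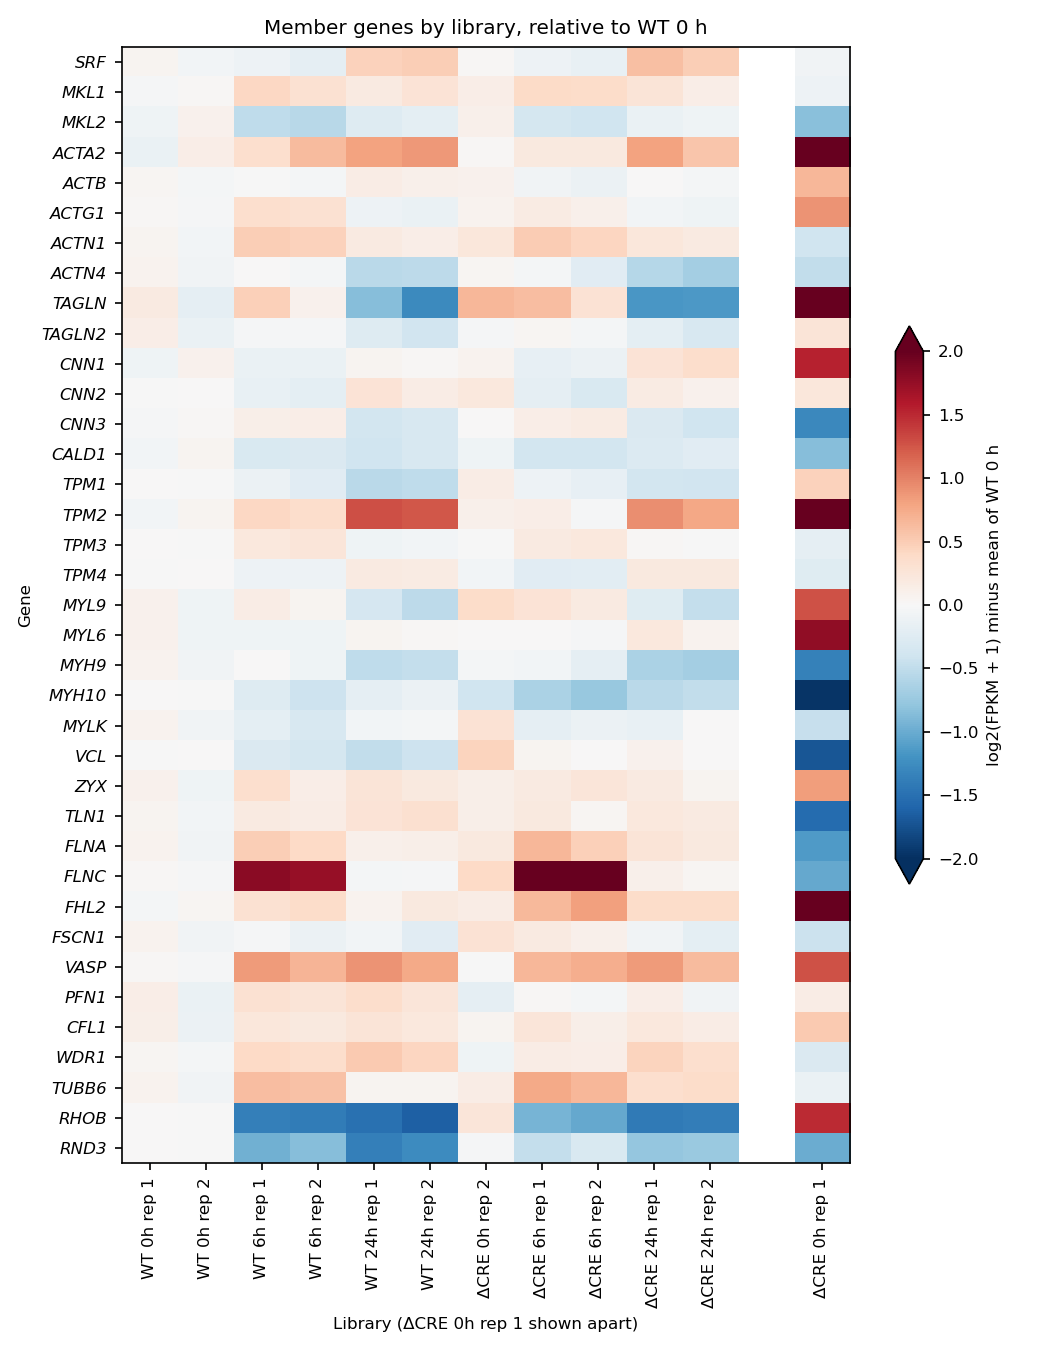
Each of the 37 genes (rows) in each of the 12 libraries (columns), as log2(FPKM + 1) minus the mean of the WT 0 h libraries, red for higher and blue for lower, with colors saturating at 2 in either direction. FLNC is red at 6 h in both genotypes, RHOB and RND3 are blue at 6 h and 24 h, and the library labelled ΔCRE 0 h replicate 1, set apart at the right, is unlike all others in ACTA2, TAGLN, TPM2, FHL2 and MYH10.

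Several shapes over time recurred in WT cells. A maximum at 6 h, with calls against both 0 h and 24 h, was seen for 7 members (ACTG1, ACTN1, TPM3, FLNA, FLNC, FHL2 and TUBB6), against 10.8% of all features. A level at 24 h below both earlier times was seen for 8 (ACTN4, TAGLN, TAGLN2, CNN3, TPM1, MYL9, MYH9 and RND3), against 15.0% of all features, and a level at 24 h above both for 4 (SRF, CNN2, TPM2 and TPM4), against 12.3%. MKL2 alone was lower at 6 h than at both other times, against 7.66%. Lower than 0 h at both later times were 6 (MKL2, CALD1, TPM1, VCL, RHOB and RND3), against 12.6%, and higher at both were 6 (MKL1, ACTN1, TPM2, VASP, PFN1 and WDR1), against 14.4%. In ΔCRE cells a maximum at 6 h was called for 6 (8.86% of all features), a minimum at 6 h for MKL2, CNN2 and TPM4 (6.28%), and a fall at each step for TPM1, RHOB and RND3 (2.06%). The paired calls behind each shape share libraries.

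The filamins cross-link actin filaments, and FLNC, the muscle-type filamin, had the largest called log2 fold change of the 35 tested genes. FLNC was at 11.5 and 11.05 FPKM in the WT libraries at 0 h, 42.0 and 40.3 at 6 h and 10.98 and 11.1 at 24 h. FLNC in ΔCRE cells was at 15.1 FPKM in replicate 2 of 0 h, 58.7 and 49.8 at 6 h and 12.2 and 11.6 at 24 h. The 6 h libraries of both genotypes lay above all others, and the ΔCRE libraries at 6 h lay above the WT ones. FLNC changed by 1.78 (SE 0.0781, adjusted p = 8.12e-07) from 0 h to 6 h in WT and by -1.81 (SE 0.0781, adjusted p = 1.72e-06) from 6 h to 24 h, and in ΔCRE cells by 1.77 (SE 0.0957, adjusted p = 4.13e-06) and -2.09 (SE 0.0781, adjusted p = 7.27e-07). WT levels at 24 h differed from those at 0 h by -0.03. FLNA, the ubiquitous filamin on chromosome X, was far more abundant (182 to 303 FPKM over the 11 libraries) and rose by less at 6 h, 0.45 in WT and 0.38 in ΔCRE cells, the latter lost without ΔCRE 6 h replicate 1. FHL2 encodes a LIM domain protein of focal adhesions and nucleus that is itself a target and a cofactor of SRF. FHL2 was at 17.6 and 18.6 FPKM in the WT libraries at 0 h, 22.6 and 23.6 at 6 h and 18.9 and 20.8 at 24 h. FHL2 in ΔCRE cells was at 20.1 FPKM in replicate 2 of 0 h, 29.0 and 32.6 at 6 h and 23.7 and 23.7 at 24 h. FHL2 also peaked at 6 h, without overlap with 0 h in either genotype, by 0.34 (SE 0.0725, adjusted p = 0.00575) in WT and 0.59 (SE 0.0888, adjusted p = 0.00152) in ΔCRE cells. Its WT fall from 6 h to 24 h (-0.21, adjusted p = 0.0431) lost the call when any of 7 single libraries was left out, each WT 0 h and WT 6 h library among them. TUBB6, a beta-tubulin of microtubules rather than of actin filaments, had the same shape. TUBB6 was at 72.0 and 65.3 FPKM in the WT libraries at 0 h, 105 and 103 at 6 h and 71.2 and 70.9 at 24 h. TUBB6 in ΔCRE cells was at 75.8 FPKM in replicate 2 of 0 h, 116 and 109.5 at 6 h and 86.9 and 88.6 at 24 h. Its rise at 6 h was 0.60 (SE 0.0593, adjusted p = 9.55e-05) in WT and 0.57 (SE 0.0726, adjusted p = 0.000660) in ΔCRE cells.

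The cytoplasmic actins were the most abundant members with the myosin light chain MYL6, the monomer-binding profilin PFN1 and the severing protein CFL1. ACTB lay between 2077 and 2498 FPKM over the 11 libraries and was not called in any comparison. ACTG1 (1201 to 1663 FPKM) rose by 0.32 at 6 h in WT cells and fell by 0.44 from there to 24 h. In ΔCRE cells its 6 h value was 0.07 and not called. Transcripts of ACTB and ACTG1 share 8.54% and 4.26% of their 50-base windows with other genes. The largest shares were with ACTBP2 for ACTB (3.79%) and with AC139149.1 for ACTG1 (1.43%). Reads from shared windows could be assigned to the member or to the other gene. The smooth muscle actin ACTA2 was at 0.11 to 1.24 FPKM in the 11 libraries, too low for a test. The ACTA2 feature extends 24446 bases past the annotated gene. ACTN1 and ACTN4 encode the non-muscle alpha-actinins that bundle filaments and anchor them to adhesions. ACTN1 (92.1 to 137 FPKM) rose by 0.48 at 6 h in WT. From 6 h to 24 h both ACTN1 and ACTN4 were called lower in both genotypes. The ACTN4 feature extends 12907 bases past the annotated gene, so reads from outside the gene could be counted in it. ACTN4 was at 248 and 225 FPKM in the WT libraries at 0 h, 238 and 230.5 at 6 h and 162 and 164 at 24 h. ACTN4 in ΔCRE cells was at 242 FPKM in replicate 2 of 0 h, 231 and 202 at 6 h and 159 and 147 at 24 h. All 24 h libraries of ACTN4 were below all earlier ones, a change of -0.52 (SE 0.0777, adjusted p = 0.000897) from 6 h in WT and -0.49 (SE 0.0777, adjusted p = 0.00109) in ΔCRE cells.

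TAGLN, TAGLN2 and the calponins are actin-binding proteins of a shared family, and TAGLN and CNN1 mark smooth muscle. TAGLN was at 5.32 and 3.89 FPKM in the WT libraries at 0 h, 6.73 and 4.93 at 6 h and 2.08 and 1.29 at 24 h. TAGLN in ΔCRE cells was at 7.80 FPKM in replicate 2 of 0 h, 7.52 and 5.76 at 6 h and 1.48 and 1.501 at 24 h. The 24 h libraries lay below all others. TAGLN fell by 1.07 at 24 h against 0 h in WT (SE 0.195, adjusted p = 0.00198) and by 1.61 from 6 h to 24 h in ΔCRE cells (SE 0.195, adjusted p = 0.000281). Its feature extends 20147 bases past the annotated gene and 65.5% of its 50-base windows are shared with an overlapping gene, so reads of either cannot be separated. TAGLN2 (498 to 706 FPKM), with 9.33% of its windows shared with a pseudogene, fell by 0.32 at 24 h against 0 h in WT, a call lost without WT 0 h replicate 1 or WT 24 h replicate 2. CNN3 was at 184 and 189.7 FPKM in the WT libraries at 0 h, 203 and 204 at 6 h and 145 and 149 at 24 h. CNN3 in ΔCRE cells was at 188 FPKM in replicate 2 of 0 h, 206 and 209 at 6 h and 152 and 141 at 24 h. CNN3, the calponin of non-muscle cells, was lower at 24 h than at any earlier time in both genotypes, with -0.47 (SE 0.0522, adjusted p = 0.000218) from 6 h in WT and -0.50 (SE 0.0522, adjusted p = 0.000132) in ΔCRE cells. CNN2 went the other way, with 0.37 from 6 h to 24 h in WT and 0.37 in ΔCRE cells. CNN1 was at most 0.51 FPKM in the 11 libraries.

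Tropomyosins wind along actin filaments and govern the access of other proteins, and the 4 genes diverged. TPM2 was at 12.6 and 13.6 FPKM in the WT libraries at 0 h, 17.8 and 16.9 at 6 h and 33.4 and 32.4 at 24 h. TPM2 in ΔCRE cells was at 14.1 FPKM in replicate 2 of 0 h, 14.4 and 12.8 at 6 h and 25.9 and 23.1 at 24 h. The 24 h libraries lay above all others in both genotypes, and the WT ones lay above the ΔCRE ones. TPM2 changed by 1.27 (SE 0.0793, adjusted p = 5.61e-06) at 24 h against 0 h in WT, and by 0.80 (SE 0.0793, adjusted p = 9.87e-05) from 6 h to 24 h in ΔCRE cells. TPM1 was at 80.1 and 79.7 FPKM in the WT libraries at 0 h, 73.3 and 68.1 at 6 h and 54.8 and 56.0 at 24 h. TPM1 in ΔCRE cells was at 88.4 FPKM in replicate 2 of 0 h, 74.5 and 70.9 at 6 h and 61.5 and 61.03 at 24 h. TPM1 fell at each step, by 0.52 in all at 24 h in WT (SE 0.0535, adjusted p = 8.59e-05). Its smaller fall at 6 h was lost without either WT 0 h library or WT 6 h replicate 2 in WT and without ΔCRE 6 h replicate 2 in ΔCRE cells. TPM3 and TPM4 were the most abundant tropomyosins (248.97 to 314 and 216 to 290 FPKM). From 6 h to 24 h in WT TPM3 changed by -0.30 and TPM4 by 0.27. TPM4 shares 22.4% of its windows with other genes, mainly the pseudogene TPM4P2. CALD1, which encodes the filament stabilizer caldesmon, fell by 0.30 at 6 h in WT and by 0.28 in ΔCRE cells, the latter lost without either ΔCRE 6 h library.

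MYL9 and MYH9, genes of the contractile motor non-muscle myosin II, were lower at 24 h. MYL9 encodes a regulatory light chain. MYL9 was at 82.3 and 72.7 FPKM in the WT libraries at 0 h, 85.7 and 80.8 at 6 h and 61.4 and 53.4 at 24 h. MYL9 in ΔCRE cells was at 101 FPKM in replicate 2 of 0 h, 93.9 and 87.7 at 6 h and 65.2 and 55.5 at 24 h. MYH9 encodes the main heavy chain. MYH9 was at 258 and 233 FPKM in the WT libraries at 0 h, 246 and 232 at 6 h and 173 and 176 at 24 h. MYH9 in ΔCRE cells was at 238 FPKM in replicate 2 of 0 h, 235 and 216 at 6 h and 157 and 153 at 24 h. For both genes all 24 h libraries were below all earlier ones. From 6 h to 24 h MYL9 changed by -0.53 (SE 0.101, adjusted p = 0.00299) in WT and -0.59 (SE 0.101, adjusted p = 0.00167) in ΔCRE cells, and MYH9 by -0.45 (SE 0.0671, adjusted p = 0.000860) and -0.54 (SE 0.0671, adjusted p = 0.000328). At 24 h against 0 h in WT MYL9 changed by -0.43, a call lost without WT 24 h replicate 2. MYH10, another heavy chain, was far lower in level (5.03 to 9.22 FPKM) and fell at 6 h, by 0.33 in WT, a call lost without WT 6 h replicate 2. MYLK, the kinase of the regulatory light chain, was at 1.77 to 3.19 FPKM and was called in 1 comparison, 6 h against 0 h in ΔCRE cells (-0.42, lost without ΔCRE 6 h replicate 1). The MYLK feature extends 24493 bases past the annotated gene. The essential light chain MYL6 (1353 to 1667 FPKM) was called in no comparison.

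Of the focal adhesion genes VCL fell. Vinculin, its product, links talin at integrins to actin filaments. VCL was at 63.6 and 64.3 FPKM in the WT libraries at 0 h, 52.2 and 49.9 at 6 h and 45.3 and 47.5 at 24 h. VCL in ΔCRE cells was at 87.7 FPKM in replicate 2 of 0 h, 66.6 and 64.4 at 6 h and 68.1 and 64.3 at 24 h. The WT libraries at 0 h lay above all later WT libraries, and at each time point the ΔCRE libraries lay above the WT ones. The WT change was -0.32 (SE 0.0539, adjusted p = 0.00177) at 6 h and -0.45 (SE 0.0539, adjusted p = 0.000189) at 24 h against 0 h, and the ΔCRE change at 6 h was -0.42 (SE 0.0660, adjusted p = 0.00204). With ΔCRE 0 h replicate 1 in the fit, whose VCL was at 18.8 FPKM, the ΔCRE change was 0.67 and not called. Talin (TLN1, 53.1 to 68.9 FPKM) and the LIM protein zyxin (ZYX, 52.6 to 70.5 FPKM) were higher at 24 h than at 0 h in WT by 0.29 and 0.23. The TLN1 feature extends 17033 bases past the annotated gene. The ZYX feature extends 132364 bases past the annotated gene, and its call was lost when any of 6 single libraries was left out, WT 0 h replicate 2 and both WT 24 h libraries among them.

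Of 5 genes for filament growth, turnover and bundling, VASP, PFN1, CFL1 and WDR1 were called higher at 24 h than at 0 h in WT cells. Over all features 26.5% were called higher in that comparison. VASP promotes filament elongation at adhesions and the leading edge. VASP was at 58.0 and 56.4 FPKM in the WT libraries at 0 h, 104 and 92.1 at 6 h and 107 and 97.7 at 24 h. VASP in ΔCRE cells was at 56.9 FPKM in replicate 2 of 0 h, 91.3 and 95.1 at 6 h and 104 and 89.0 at 24 h. Every stimulated library was above every 0 h library in both genotypes. VASP rose by 0.76 at 6 h (SE 0.0869, adjusted p = 0.000207) and was 0.83 above 0 h at 24 h in WT, and rose by 0.70 at 6 h in ΔCRE cells. WDR1, which helps cofilin disassemble filaments, was at 151 to 232 FPKM and rose by 0.38 at 6 h and 0.48 at 24 h in WT. PFN1 (1162 to 1690 FPKM, with 9.79% of windows shared with a pseudogene) and CFL1 (1010 to 1309 FPKM) were called higher at 24 h than at 0 h in WT, by 0.30 and 0.23, and these calls were lost when any of 5 and any of 7 single libraries, respectively, was left out. FSCN1, the filopodial bundling protein fascin, was called only from 6 h to 24 h in ΔCRE cells (-0.27, lost without either ΔCRE 6 h library or ΔCRE 24 h replicate 2).

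The small GTPase genes RHOB and RND3 fell at both later times in WT cells. RHOB is a short-lived endosomal GTPase and an immediate early gene in many cells. RHOB was at 21.2 and 20.8 FPKM in the WT libraries at 0 h, 7.54 and 7.31 at 6 h and 6.81 and 6.13 at 24 h. RHOB in ΔCRE cells was at 24.9 FPKM in replicate 2 of 0 h, 10.6 and 9.87 at 6 h and 7.30 and 7.42 at 24 h. Every stimulated library was below every 0 h library. The WT change was -1.39 (SE 0.0652, adjusted p = 1.12e-06) at 6 h and -1.56 (SE 0.0652, adjusted p = 6.61e-07) at 24 h against 0 h, and the ΔCRE change at 6 h was -1.21 (SE 0.0799, adjusted p = 1.38e-05). RND3, an atypical small GTPase whose activity loosens actin stress fibers, fell in steps. RND3 was at 48.0 and 47.5 FPKM in the WT libraries at 0 h, 24.1 and 26.0 at 6 h and 17.9 and 19.4 at 24 h. RND3 in ΔCRE cells was at 46.7 FPKM in replicate 2 of 0 h, 34.0 and 38.4 at 6 h and 27.5 and 28.0 at 24 h. The genotypes were close at 0 h and the ΔCRE libraries lay above the WT ones at 6 h and 24 h without overlap. In WT RND3 changed by -0.91 (SE 0.0724, adjusted p = 2.73e-05) at 6 h and -1.31 (SE 0.0724, adjusted p = 2.91e-06) at 24 h against 0 h. In ΔCRE cells the 6 h change was -0.36 (SE 0.0887, adjusted p = 0.0157), which was lost without ΔCRE 6 h replicate 1 and became 0.12 with ΔCRE 0 h replicate 1 in the fit.

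**Figure D2:**
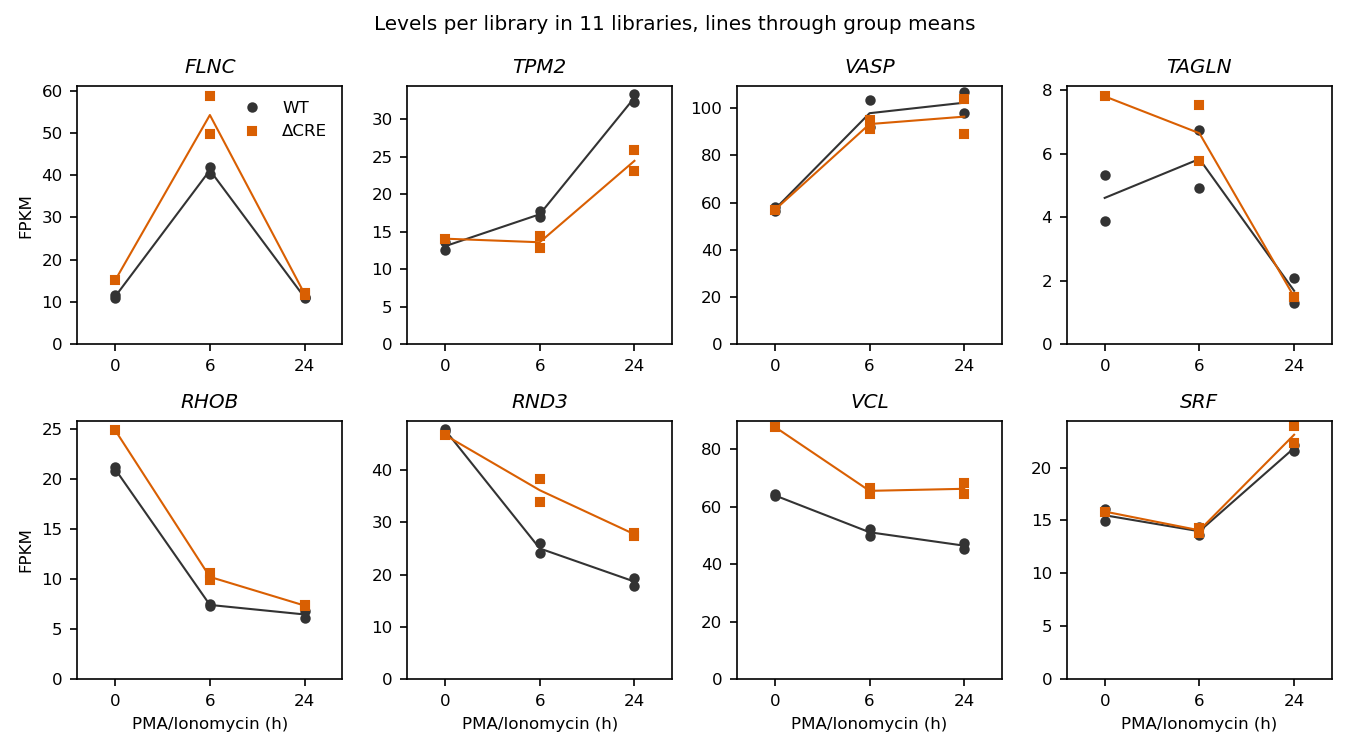
FPKM of 8 genes (vertical axes from 0) against hours of PMA/Ionomycin in the 11 libraries, with circles for WT and squares for ΔCRE libraries and lines through the group means (1 ΔCRE library at 0 h). FLNC peaks at 6 h, TPM2 rises to 33.4 FPKM in WT at 24 h, and the genotypes are close at 0 h and apart at 6 h and 24 h for RND3.

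Differences between ΔCRE and WT cells were fewer. At 0 h 1 member, VCL, was called higher in ΔCRE cells, 2.86% of the 35 against 1.69% of all features (0.657% higher and 1.03% lower). At 6 h 5 were higher (RND3, RHOB, FHL2, FLNC and VCL) and 3 lower (MYH10, TPM2 and WDR1), 22.9% against 9.83% (3.62% higher and 6.22% lower). At 24 h RND3, VCL and TUBB6 were higher and TPM2 and MYH10 lower, 14.3% against 6.33% (2.35% higher and 3.97% lower). The median log2 fold change of the 35 was 0.10, 0.0091 and 0.02 at 0, 6 and 24 h, with 0.0057, 0.01 and 0.01 over all features. With all 12 libraries in the fit the count was 0 at each time point, against 0.146%, 0.171% and 0.146% of all features. The log2 fold changes at 6 h and 24 h, which use no 0 h library, stayed as they were. Without either WT 0 h library the count at 0 h was 0, and without either ΔCRE 6 h library it was 2.

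RND3 had the largest difference in both stimulated comparisons. Its mean in ΔCRE cells was 1.45 times the WT mean at 6 h and 1.49 times at 24 h, log2 fold changes of 0.51 (SE 0.0724, adjusted p = 0.00398) and 0.55 (SE 0.0724, adjusted p = 0.00470), and both calls held when each of the 11 libraries was left out in turn. At 0 h the difference was -0.03 (adjusted p = 0.923). RHOB, FHL2 and FLNC were higher in ΔCRE cells at 6 h by 0.41 (SE 0.0652, adjusted p = 0.00667), 0.40 (SE 0.0725, adjusted p = 0.0118) and 0.39 (SE 0.0781, adjusted p = 0.0187). Their differences at 24 h, 0.16, 0.24 and 0.10, had adjusted p-values of 0.196, 0.0937 and 0.531. FLNC differed by 0.39 at 0 h as well, with an adjusted p of 0.0899. The call of RHOB was lost without WT 6 h replicate 2, that of FHL2 without either WT 6 h library or ΔCRE 6 h replicate 2, and that of FLNC without either WT 6 h library or ΔCRE 6 h replicate 1. TUBB6 was higher in ΔCRE cells at 24 h (0.30, SE 0.0593, adjusted p = 0.0233), a call lost without any of the 4 libraries of 24 h.

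TPM2 was lower in ΔCRE cells at both stimulated times, with 78.5% of the WT mean at 6 h and 74.4% at 24 h, log2 fold changes of -0.33 (SE 0.0793, adjusted p = 0.0358) and -0.41 (SE 0.0793, adjusted p = 0.0205). The 6 h call was lost without either WT 6 h library, either WT 24 h library or ΔCRE 6 h replicate 2, and the 24 h call without either WT 24 h library or ΔCRE 24 h replicate 2. WDR1 was lower at 6 h by 0.23 (adjusted p = 0.0428), lost without any library of 6 h or any WT library of 24 h. MYH10 was lower at both times, with -0.36 (SE 0.0757, adjusted p = 0.0218) and -0.37 (SE 0.0757, adjusted p = 0.0258), and its 0 h value was -0.41 (adjusted p = 0.0769). Its 6 h call was lost without WT 6 h replicate 1 or ΔCRE 6 h replicate 2 and its 24 h call without any library of 24 h. Leaving out WT 6 h replicate 1, WT 6 h replicate 2 or ΔCRE 6 h replicate 2 left 3, 2 and 4 of the members called at 6 h, and leaving out any library of 24 h left 2 or 3 called at 24 h.

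VCL was higher in ΔCRE cells at all 3 time points, at 1.37, 1.28 and 1.43 times the WT mean at 0, 6 and 24 h, log2 fold changes of 0.45 (SE 0.0660, adjusted p = 0.0143), 0.35 (SE 0.0539, adjusted p = 0.00583) and 0.50 (SE 0.0539, adjusted p = 0.00169). The 24 h call held when each of the 11 libraries was left out in turn, the 6 h call was lost without WT 6 h replicate 2, and the 0 h call was lost without either WT 0 h library. Including ΔCRE 0 h replicate 1 turned the 0 h value to -0.63.

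**Figure D3:**
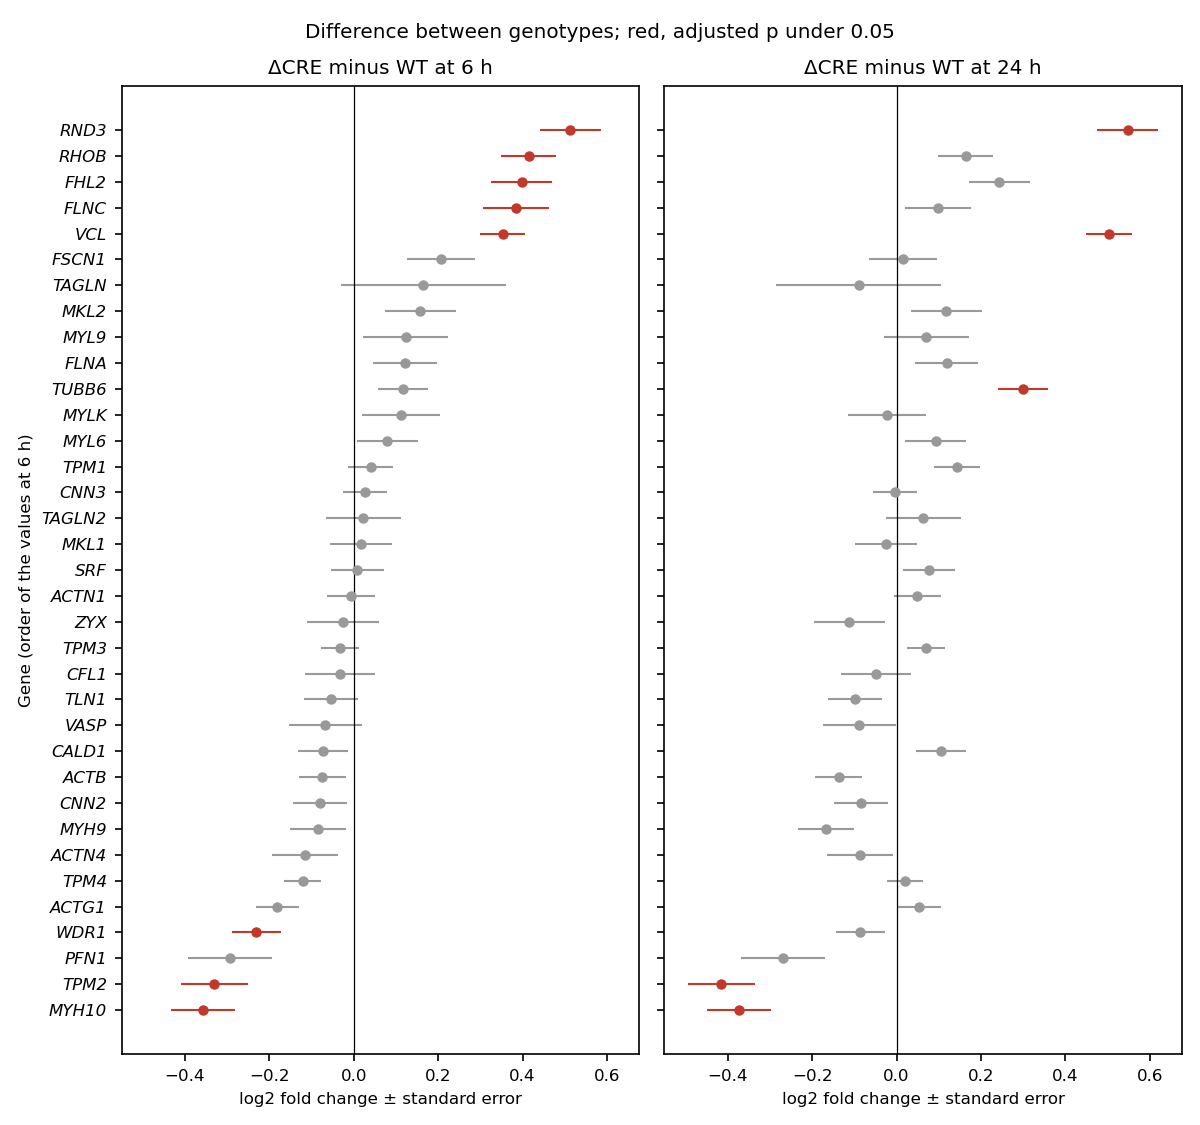
Log2 fold change of ΔCRE against WT cells for the 35 tested genes at 6 h (left) and 24 h (right), with the standard error as a horizontal bar and red for an adjusted p under 0.05. RND3 is the highest at both times, at 0.51 and 0.55, and MYH10 and TPM2 are at the low end.

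Whether the response itself differed between genotypes was tested as an interaction. None of the 35 members passed for the change from 0 h to 6 h, where 0.267% of all features did (0.08% higher and 0.187% lower), and none for the change from 6 h to 24 h, where 0.16% did (0.142% higher and 0.0178% lower), by limma on 11 libraries. At an unadjusted p under 0.05 there were 5 and 4 members. The share of all features at that threshold was not computed, so these counts have no background beside them. RND3 had the lowest p for the early change, with a difference of 0.54 between genotypes (SE 0.115, unadjusted p = 0.00127, adjusted p = 0.184), followed by TPM2 at -0.43. ACTG1 had the lowest for the later change, at 0.23 (adjusted p = 0.514). The early interaction rests on the single ΔCRE library at 0 h. With all 12 libraries in the fit the counts were again 0. With replicate number added to the fit as a block, RND3 passed for the early change.

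The genes around VCL and MYH10 differed between genotypes as well. On chromosome 10 between 70 and 80 Mb (hg19) the 62 other tested features near VCL (75757872 to 75879914) had median log2 fold changes between ΔCRE and WT cells of 0.35, 0.37 and 0.38 at the 3 times in order, and 38 of them were called higher and 2 lower at 6 h. VCL itself exceeded 87.1% of them at 0 h, 46.8% at 6 h and 87.1% at 24 h. On chromosome 17 below 10 Mb the 129 others near MYH10 (8377523 to 8534079) had medians of -0.18, -0.23 and -0.27, with 50 called lower at 6 h and 48 at 24 h and none higher at either time. PFN1 lies in the same segment, and its differences of -0.29 and -0.27 at 6 h and 24 h were not called. For the members RND3, RHOB, FHL2, FLNC, TPM2 and WDR1 the median of the other features in their segment at 6 h lay between -0.01 and 0.08, and RND3 exceeded all 16 others on chromosome 2 between 150 and 160 Mb and RHOB all 62 others between 20 and 30 Mb. Over all features the median was 0.01 at 6 h. The part that the segments play in the values of VCL, MYH10 and PFN1 was not tested.

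Members with and without a CArG box in the window scanned, at a single start per gene, were also set side by side. Of the 8 with a box, 3 rose and 1 fell from 0 h to 6 h in WT (median -0.12), and of the 23 tested without one 9 rose and 6 fell (median 0.16), where 44.4% of all features were called. From 6 h to 24 h 3 of the 8 rose and 4 fell, against 2 and 9 of the 23 and 46.8% called of all features. Between genotypes at 6 h 2 of the 8 were higher (RND3 and FHL2) and none lower, against 3 and 3 of the 23 and 9.83% called of all features. The genes with a box included a peak at 6 h (FLNA, FHL2, ACTG1), a late rise (SRF, CNN2, TPM4) and a fall (RND3), and no test was run between the groups.

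Other genes of the pathway were taken from 3 lists. Of 15 tested MRTF-SRF targets outside the members, 7 rose and 4 fell at 6 h in WT (median 0.04), which is 73.3% called against 44.4% of all features, led by TRIB1 at 1.80, the integrin subunit ITGA5 at 1.35, CTGF at -1.23 and TGFB1I1 at 0.64. Between genotypes at 6 h none of the 15 was higher in ΔCRE cells and 4 were lower, against 3.62% and 6.22% of all features. The 4 were ITGA5 (-0.67, SE 0.0612, adjusted p = 0.000504), the cardiac ankyrin repeat gene ANKRD1 (-0.65, SE 0.0584, adjusted p = 0.000488), TGFB1I1 (-0.49) and CSRP1 (-0.36). At 24 h CYR61 (-0.72) and ANKRD1 (-0.58) were lower and PDLIM5 (0.41) and MYL12A (0.21) higher, against 3.97% lower and 2.35% higher of all features. ITGA5 was at 18.3 and 17.9 FPKM in the WT libraries at 0 h, 49.2 and 46.1 at 6 h and 46.6 and 46.2 at 24 h. ITGA5 in ΔCRE cells was at 16.8 FPKM in replicate 2 of 0 h, 30.7 and 28.4 at 6 h and 40.5 and 37.9 at 24 h. The ΔCRE libraries at 6 h lay below the WT ones. For ANKRD1 the interaction from 0 h to 6 h was -0.82. This value rests on the single ΔCRE library kept at 0 h, with ANKRD1 at 229.7 FPKM. ΔCRE 0 h replicate 1, which was left out, was at 119.9 FPKM.

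A further list held immediate early genes driven by SRF and the ternary complex factors ELK1, ELK3 and ELK4 themselves, and 10 of its 13 genes were tested. Of the 10, 8 rose and 1, the factor ELK4, fell at 6 h in WT (median 1.25), against 23.3% higher and 21.1% lower over all features, and FOS was not called (0.39). The largest rises were those of immediate early genes, with JUNB at 2.61, IER3 at 2.03, NR4A1 at 1.63 and EGR1 at 1.62, and 7 of the 10 were called higher at 24 h than at 0 h, against 26.5% of all features. Between genotypes at 6 h 2 of the 10 were called higher and 1 lower, 30% against 9.83% of all features. At 24 h 2 were higher, 20% against 6.33%. The zinc finger factor EGR1 exceeded its WT level in ΔCRE cells at 6 h (0.93, SE 0.0943, adjusted p = 0.000906) and at 24 h (0.63), while ELK3 was lower at 6 h (-0.49). Of 27 genes of actin nucleation, capping and turnover, 9 rose and 5 fell at 6 h in WT, which is 51.9% called, near the 44.4% of all features. Between genotypes 1 of the 27 was called higher and 2 lower at 6 h, 11.1% against 9.83% of all features. At 24 h 3 were lower, 11.1% against 6.33%, and at 0 h 1 was lower, 3.7% against 1.69%. The severing protein gelsolin (GSN) was lower in ΔCRE cells at 0 h (-0.85), 6 h (-0.94, SE 0.0993, adjusted p = 0.00111) and 24 h (-0.58). The 0 h value of GSN rests on the single ΔCRE library kept, at 4.19 FPKM. ΔCRE 0 h replicate 1, which was left out, held 83.6 FPKM of GSN. The membrane linker moesin (MSN) was lower at 6 h (-0.49) and 24 h (-0.29).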

How the data were processed

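RNA-seq libraries (TruSeq Stranded mRNA, NextSeq 500) were aligned to hg19 by the authors with TopHat, and the authors deposited FPKM values per gene from Cufflinks. The annotation and the use of strand in counting are not given in the sources used here. No counts are in the table, so depth is unknown and no counting interval was computed. All columns were matched to labels, and no column of fold changes or p-values was used. Values were taken as log2(FPKM + 1), features with a mean of at least 1 FPKM over 11 libraries were kept (11256 of 24331), and limma 3.58.1 in R 4.3.3 (lmFit, eBayes with trend) was fitted to 6 groups in 1 model with 10 contrasts. P-values were adjusted by Benjamini-Hochberg over all tested features, and a call is an adjusted p under 0.05. Fold changes on this scale understate those of low genes. The library labelled ΔCRE 0 h replicate 1 was left out and is included in an alternative. On simulated data for ΔCRE against WT at 6 h (11256 features), 95% to 98% of 200 features changed by 1 on the log2 scale were recovered. The members differed between genotypes at 6 h by -0.36 to 0.51, and recovery of changes of that size was not measured. The members and gene lists were chosen with earlier results of these data known, and 1 further list is not reported here. Named with a value in each library are SRF, MKL1, MKL2 and the members with the largest log2 fold change among those called (up to 16), the others are given by range and counts, and up to 4 called genes per other list and contrast are named. Shared sequence was measured as 50-base windows of a transcript found in another gene. Other settings tried were 0.1 as the pseudocount, tests without the filter or with a mean of at least 5 FPKM, quantile normalization, rescaling of each library to the same FPKM total, all 12 libraries, a separate fit, a replicate block, eBayes without trend and each library left out.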

Additional observations from a re-analysis of the deposited data

Results flagged for a closer look

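The ΔCRE library of 0 h numbered 1 entered none of the comparisons, and 7 members in it were at least 2 times as high as in any of the other 11 libraries. ACTA2 was at 50.051 FPKM, TAGLN at 81.593, CNN1 at 2.4367, TPM2 at 76.071, MYL6 at 4909.5, FHL2 at 75.35 and RHOB at 60.904. Of the 37 members 15 lay above the highest of the other 11 libraries, 17 below the lowest and 5 within their range. The epithelial genes EPCAM, CDH1, KRT20, VIL1 and CDX2 summed to 1406 FPKM in the same library, against 2.08 to 3.39 in the others, and their part in these values was not tested.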

How the results depend on the processing

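Counts of called members moved mainly with the library labelled ΔCRE 0 h replicate 1. With all 12 libraries they were 3 for WT 6 h against 0 h and 5 for WT 24 h against 0 h. WT 24 h against 6 h had 3, ΔCRE 6 h against 0 h had 4 and ΔCRE 24 h against 6 h had 2. Between genotypes they were 0 at 0, 6 and 24 h. Over all features the same fit called 7.34%, 10.5%, 4.98%, 8.66% and 7.24% in the time comparisons, in that order. It called 0.146%, 0.171% and 0.146% between genotypes. The changes of RND3 (0.12), FHL2 (-0.34) and VCL (0.67) from 0 h to 6 h in ΔCRE cells and the VCL difference at 0 h (-0.63) then had the opposite sign. In separate fits WT 24 h against 0 h had 16 (5 higher and 11 lower), against 48.7% of all features. ΔCRE 6 h against 0 h had 7, against 17.5%. Between genotypes separate fits gave 0, 5 and 2 at 0, 6 and 24 h, against 0.997%, 6.52% and 2.86%. After rescaling to the same FPKM total the count between genotypes at 0 h was 2, against 1.89%. Leaving out each library in turn gave 17 to 21, 16 to 23, 17 to 20, 10 to 17 and 19 to 23 in the time comparisons, in the order above, 0 to 2, 2 to 8 and 2 to 5 between genotypes at 0, 6 and 24 h, and 0 to 0 for both interactions. The genes of the other lists were refitted in the same settings, and their values in those fits are not given here.

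Replicate numbers were shared between groups, but same-numbered libraries deviated together weakly or not at all (correlations of -0.07 to 0.20), and the pairing was not used in the main fit. With the replicate block the counts were 25, 27, 24, 23 and 24 in the time comparisons, 7, 12 and 7 between genotypes at 0, 6 and 24 h, and 1 and 0 for the interactions, the 1 being RND3 (0.58, adjusted p = 0.0432).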
